A study of Homo sapiens with 18 samples.

Results

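ATF4 is the transcription factor at the end of the integrated stress response, and 44 of its target genes and partners were followed here in lung adenocarcinoma cells with altered levels of RAD21, a subunit of the cohesin ring that holds sister chromatids together and folds chromatin into loops. The 44 genes were taken by name from 58735 genes counted and fall into 4 groups by role: 7 amino acid transporters, 12 enzymes of amino acid synthesis and folate metabolism, 11 genes of tRNA charging and tRNA export, and 14 stress regulators and other targets. RAD21 was altered in 3 groups: A549 cells with a lentiviral shRNA against RAD21 (shRAD21), H358 cells with the same kind of shRNA, and A549 cells overexpressing RAD21 (RAD21OE). The controls were A549 and H358 cells with the control shRNA vector (shNC) and A549 cells with the empty overexpression vector (EV). A549 and H358 are established human lung adenocarcinoma lines. There were 3 libraries in each of the 6 groups. The labels do not say whether the shRNA cells were clones or pools, how many shRNA sequences were used, or how long after transduction the RNA was taken, and the knockdown and overexpression libraries belong to separate labelled batches. Each comparison stayed within its batch.

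In the integrated stress response, kinases that sense amino acid shortage, unfolded protein in the endoplasmic reticulum, viral RNA or heme loss phosphorylate the translation factor eIF2. Bulk translation falls, while the ATF4 mRNA, which carries short upstream reading frames, is translated more. ATF4 pairs with C/EBP proteins on C/EBP-ATF response elements and turns on genes that bring in amino acids, make serine, proline and asparagine, charge tRNAs and, under lasting stress, slow growth or lead to cell death. In lung adenocarcinoma the program is known for its link to serine synthesis. Since ATF4 is controlled largely at translation, its mRNA is not a measure of its protein, and only RNA was measured here.

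Levels are given as CPM, reads of a gene scaled to the size of its library. "Rose" and "fell" mark genes with an adjusted p below 0.05 in edgeR's quasi-likelihood test over all genes tested. The knockdown libraries held 15155077 to 19277568 counts and the overexpression libraries 13024640 to 14276335. RAD21 itself had 129, 132 and 101 CPM in the A549 shRAD21 libraries, against 257, 253 and 255 CPM in the A549 shNC libraries. For H358 the values were 379, 427 and 433 CPM in the H358 shRAD21 libraries, against 569, 589 and 603 CPM in the H358 shNC libraries. With overexpression it had 1520, 1501 and 1306 CPM in the RAD21OE libraries, against 195, 209 and 194 CPM in the EV libraries. All 3 contrasts matched their labels, with no overlap, and the level of RAD21 in shRAD21 was 0.474 times that of shNC in A549 and 0.703 times in H358. Summed over EPCAM, KRT8, KRT18, KRT19 and CDH1, epithelial markers stood at 4510 to 14000 CPM in every library, although EPCAM itself had only 2.84 to 12.2 CPM in A549, and in H358 470 to 559 CPM, while the lung lineage markers NKX2-1, SFTPB, SFTPC and NAPSA summed to 116 to 165 CPM in H358 and to only 1.35 to 2.97 CPM in A549. The lung lineage sum of H358 was nearly all NKX2-1, at 114 to 163 CPM. Sums of fibroblast, leukocyte and endothelial markers stayed at or under 47.6, 5.59 and 5.66 CPM. Replicate 3 of A549 shRAD21 and replicate 3 of RAD21OE stood apart from the other 2 of their groups, with a median absolute log2 difference of 0.304 to 0.313 and of 0.231 to 0.269, where the largest value among the remaining pairs was 0.146. Across genes their deviations from the mean of their own group rose with GC content (Spearman's rho 0.59 and 0.67). Those of replicates 1 and 2 fell with it, but deviations from a shared mean cancel, so this fall is no separate observation. For each role the counts in A549 are given with and without replicate 3 of these groups.

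The response element is shown first because it is the sequence through which ATF4 is known to act on its targets. RefSeq promoters (GRCh38.p14, 250 bases before to 50 after each start) were listed for 35 of the 44 genes, and 14 of these 35 (40.0%) held TGATGNAA on either strand at any of their listed starts, against 1217 of all 27305 genes listed (4.46%) and 1270 of 35116 promoters (3.62%). The motif was counted in 4 of 6 transporters, 1 of 7 synthesis enzymes, 6 of 10 tRNA genes and 3 of 12 regulators and other targets. It was found in SLC3A2, SLC7A1, SLC1A4, SLC1A5, ASNS, AARS, GARS, NARS, MARS, IARS, TARS, CHAC1, CEBPG and JDP2. A match describes these letters only. The windows below are those of 4 tRNA ligases that fell with knockdown in H358 and rose with overexpression, of 2 transporters that rose with overexpression, and of CHAC1, which had the largest fall of the 44 in both knockdowns. Those of MARS, GARS, SLC1A4, IARS and CHAC1 lie at starts that fall inside the hg38 gene as the files annotate it, that of SLC7A1 spans the start of the gene, and that of AARS lies before the gene. Capitals mark the motif, and each window is written 5′ to 3′ along the strand that reads TGATGNAA.
AARS: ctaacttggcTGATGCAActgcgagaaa, at chr16:70289676-70289703, plus strand.
MARS: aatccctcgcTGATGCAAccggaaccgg, at chr12:57488054-57488081, minus strand.
GARS: gctcggagcaTGATGAAAtcgccgcgta, at chr7:30594835-30594862, minus strand.
IARS: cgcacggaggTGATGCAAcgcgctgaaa, at chr9:92293693-92293720, plus strand.
SLC1A4: cggctggagaTGATGCAAacgggagccg, at chr2:64989382-64989409, minus strand.
SLC7A1: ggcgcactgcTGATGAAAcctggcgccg, at chr13:29595664-29595691, minus strand.
CHAC1: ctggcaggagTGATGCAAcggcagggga, at chr15:40953252-40953279, minus strand.
The motif reads TGATGAAA in GARS and SLC7A1 and TGATGCAA in the other windows.

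AARS encodes alanyl-tRNA synthetase, and is one of 4 of the 44 genes (9.09%, against 0.235% of all genes) that fell in both knockdowns and rose with overexpression. Its upstream stretch is shown because it carries the motif on the strand opposite to the gene, so that along the gene it reads TTGCATCA, here in capitals, in the 213 bases at chr16:70289544-70289756, minus strand, that lie before the annotated gene.
AARS upstream: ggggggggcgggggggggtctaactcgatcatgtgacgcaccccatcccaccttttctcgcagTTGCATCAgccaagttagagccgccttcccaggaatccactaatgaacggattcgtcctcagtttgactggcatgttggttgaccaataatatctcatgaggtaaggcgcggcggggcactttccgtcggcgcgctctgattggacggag

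All 44 genes passed the filter on low counts in every comparison. In H358, RAD21 knockdown lowered 27 of them and raised 1, against 4.62% and 3.78% of all 18939 genes tested, and the median log2 fold change was -0.34, against 0 over all genes. In A549, knockdown lowered 16 and raised 5, against 10.9% and 14.4% of all genes, with a median of -0.13 against 0.0045. RAD21 overexpression in A549 raised 19 and lowered 5, against 14.1% and 13.7% of the 15462 genes tested there, with a median of 0.25 against -0.015. Without replicate 3 of shRAD21 the counts became 25 lower and 10 higher for knockdown in A549, while all genes called there went from 4780 to 8430. Without replicate 3 of RAD21OE they became 24 higher and 6 lower for overexpression, while all genes called went from 4297 to 5536. The counts by role without replicate 3, given below, come from these same fits. SHMT2, CEBPB and JDP2 passed the test in no comparison; CEBPB and JDP2 are DNA-binding proteins of the same bZIP class as ATF4. Because bulk RNA was measured, fewer cells of a kind and less RNA per cell cannot be told apart in any of these values.

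**Figure D1:**
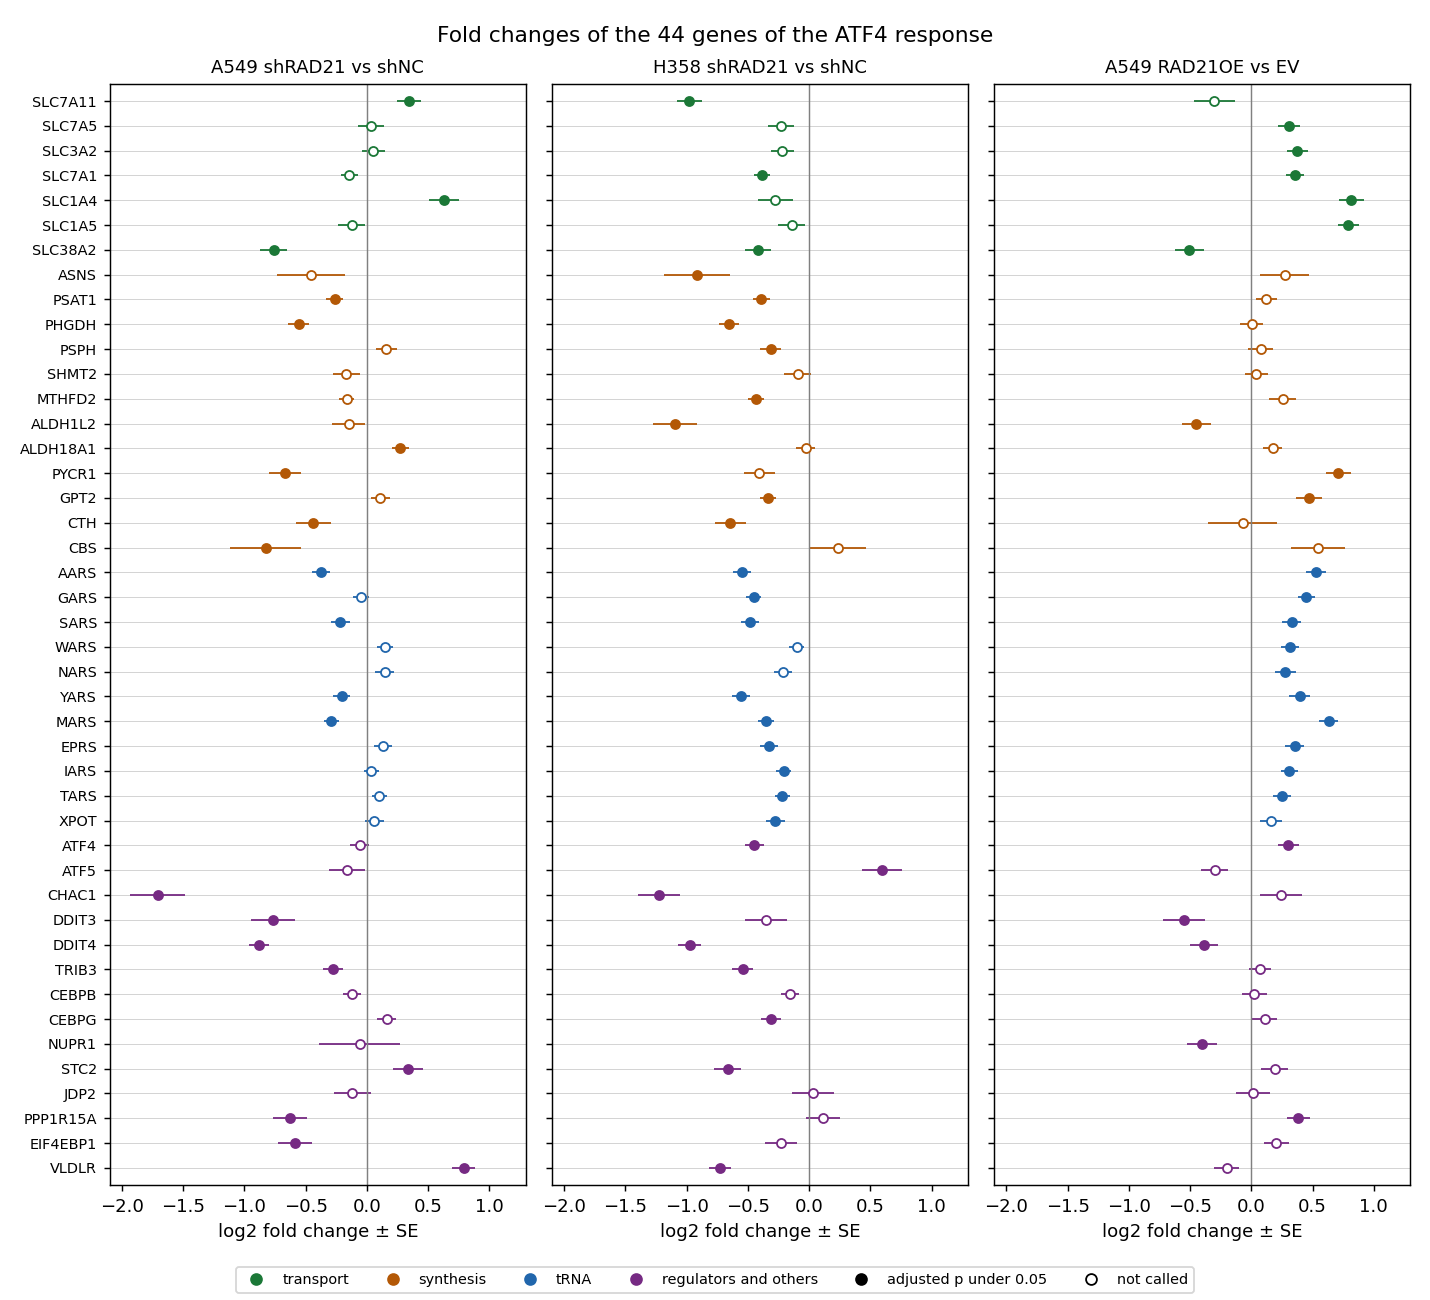
Log2 fold change with its standard error for each of the 44 genes in the 3 comparisons, shRAD21 over shNC in A549 and in H358 and RAD21OE over EV; colours give the role, and filled points have an adjusted p under 0.05. NUPR1 is left out in H358, where it had almost no counts. The H358 points lie mostly left of 0 (27 fell) and the overexpression points of the tRNA genes all lie right of 0 (10 of 11 rose).

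Of the 7 amino acid transporters, 5 rose and 1 fell with overexpression, 2 rose and 1 fell in A549 knockdown, and 3 fell in H358. The medians were 0.36, 0.037 and -0.28. Of all genes, 14.1% rose and 13.7% fell with overexpression, 14.4% rose and 10.9% fell in A549 knockdown, and 4.62% fell in H358. SLC38A2, a sodium-coupled neutral amino acid transporter that cells induce on amino acid shortage, fell in all 3 comparisons. It had 229.7, 229 and 154 CPM in the A549 shRAD21 libraries, against 324, 344 and 370.1 CPM in the A549 shNC libraries, a log2 fold change of -0.76 ± 0.11 (SE, edgeR adjusted p = 4.42e-05). It had 298, 292 and 317 CPM in the H358 shRAD21 libraries, against 429.9, 389 and 393 CPM in the H358 shNC libraries, with a log2 fold change of -0.42 ± 0.11 (SE, edgeR adjusted p = 0.0218). With overexpression it had 334, 307 and 231 CPM in the RAD21OE libraries, against 397, 455 and 386 CPM in the EV libraries, with a log2 fold change of -0.51 ± 0.12 (SE, edgeR adjusted p = 0.00696). Groups did not overlap in any of the 3, and replicate 3 was the lowest library of shRAD21 in A549 and of RAD21OE. The H358 call was lost when any 1 of the 6 libraries was left out (adjusted p 0.0522 to 0.105), and the overexpression call without replicate 2 of EV (0.0513).

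SLC7A11, the light chain of the cystine and glutamate exchanger that supplies cysteine for glutathione, went opposite ways in the 2 lines. It had 66.0, 60.5 and 61.3 CPM in the H358 shRAD21 libraries, against 126, 113 and 131 CPM in the H358 shNC libraries, with no overlap and a log2 fold change of -0.98 ± 0.10 (SE, edgeR adjusted p = 1.67e-05). It had 748, 759 and 537 CPM in the A549 shRAD21 libraries, against 534, 514 and 561 CPM in the A549 shNC libraries, a log2 fold change of 0.35 ± 0.099 (SE, edgeR adjusted p = 0.0152), where replicates 1 and 2 were high and replicate 3 lay within the controls. This rise missed the threshold when 1 of 4 libraries was left out (replicate 1 or 2 of either group, adjusted p 0.0538 to 0.0884), and was 0.49 without replicate 3 of shRAD21. Overexpression gave 526, 433 and 270.0 CPM in the RAD21OE libraries, against 498, 509 and 508 CPM in the EV libraries, which did not pass the test (-0.30, edgeR adjusted p = 0.192). Reads of SLC7A11 were far more abundant in A549 than in H358 under either vector.

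SLC1A5 and SLC1A4, exchangers of glutamine and of alanine, serine and cysteine, had the largest rises with overexpression. SLC1A5 had 449, 453 and 549.8 CPM in the RAD21OE libraries, against 279.7, 272 and 286 CPM in the EV libraries, a log2 fold change of 0.79 ± 0.087 (SE, edgeR adjusted p = 5.48e-05). SLC1A4 had 55.2, 52.6 and 62.5 CPM in the RAD21OE libraries, against 32.8, 32.8 and 31.1 CPM in the EV libraries, a log2 fold change of 0.82 ± 0.100 (SE, edgeR adjusted p = 0.000118). In both genes every RAD21OE library was above every EV library, with replicate 3 the highest. SLC1A4 also rose with knockdown in A549, with 48.0, 45.5 and 55.1 CPM in the A549 shRAD21 libraries, against 36.4, 29.7 and 29.8 CPM in the A549 shNC libraries and a log2 fold change of 0.63 ± 0.12 (SE, edgeR adjusted p = 0.000845), so that it moved the same way with less and with more RAD21. SLC7A5, the light chain of the large neutral amino acid transporter, SLC3A2, the heavy chain that it and SLC7A11 share, and SLC7A1, a carrier of cationic amino acids, rose with overexpression by log2 0.31, 0.38 and 0.36. SLC7A1 fell in H358 (-0.39, edgeR adjusted p = 0.00132). Per length, SLC7A5 had the highest level of the 44 genes in every group, at 933 RPKM in A549 shRAD21 and 909.8 in A549 shNC, 268 RPKM in H358 shRAD21 and 315 in H358 shNC, and 741 RPKM in RAD21OE and 599 in EV. The rise of SLC7A5 was lost without replicate 1 or 2 of EV (adjusted p 0.066 to 0.117). Of the exon bases of SLC1A5, 23.83% overlap genes on the other strand, and the sources used here do not give whether counting used strand. Without replicate 3 of shRAD21, 5 transporters fell and 2 rose with knockdown in A549, and without replicate 3 of RAD21OE 5 rose and 1 fell with overexpression.

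PHGDH and PSAT1, the first enzymes of serine synthesis, fell with knockdown in both lines. Of all 12 synthesis enzymes, 8 fell and none rose in H358, 5 fell and 1 rose in A549 knockdown, and 2 rose and 1 fell with overexpression, with medians of -0.40, -0.22 and 0.15. The shares of all genes were 4.62% and 3.78%, 10.9% and 14.4%, and 14.1% and 13.7% in the same order. The overexpression counts lay near or below those shares. In A549 knockdown 6 of the 12 fell and 1 rose without replicate 3 of shRAD21, and without replicate 3 of RAD21OE 5 rose and 1 fell with overexpression. With any other A549 library left out in turn, 3 or 4 fell in A549 knockdown, and none rose without replicate 3 of shNC. The fall with overexpression, that of ALDH1L2, was lost without replicate 1 or 2 of EV. PHGDH, which takes the first step from glycolysis to serine, had 43.4, 42.4 and 52.3 CPM in the A549 shRAD21 libraries, against 70.8, 67.2 and 65.1 CPM in the A549 shNC libraries, a log2 fold change of -0.56 ± 0.084 (SE, edgeR adjusted p = 7.35e-05). H358 gave 138, 130.2 and 122 CPM in the H358 shRAD21 libraries, against 216, 196 and 202 CPM in the H358 shNC libraries, a log2 fold change of -0.65 ± 0.079 (SE, edgeR adjusted p = 5.5e-05). Overexpression left it at 83.7 ± 9.67 CPM in RAD21OE and 83.6 ± 3.32 CPM in EV (SD, n = 3 each), a log2 fold change of 0.0025 ± 0.095 (SE, edgeR adjusted p = 0.987). Knockdown thus separated the groups in both lines, while RAD21OE and EV libraries overlapped. PSAT1, the next enzyme of the pathway, fell in both lines, by log2 fold changes of -0.26, edgeR adjusted p = 0.00651 in A549 and -0.39, edgeR adjusted p = 0.00122 in H358, and PSPH, the last, fell in H358 (-0.31, edgeR adjusted p = 0.03) and did not pass the test in A549 (0.16, edgeR adjusted p = 0.178). The H358 call of PSPH was lost with 5 of the 6 libraries left out in turn, all but replicate 2 of shRAD21 (adjusted p 0.0683 to 0.179).

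PYCR1, which makes proline, fell with knockdown in A549 and rose with overexpression. It had 43.1, 43.9 and 70.7 CPM in the A549 shRAD21 libraries, against 89.0, 80.9 and 80.0 CPM in the A549 shNC libraries, a log2 fold change of -0.67 ± 0.13 (SE, edgeR adjusted p = 0.0011). Overexpression gave 111, 114 and 143 CPM in the RAD21OE libraries, against 73.3, 72.6 and 79.1 CPM in the EV libraries, a log2 fold change of 0.71 ± 0.10 (SE, edgeR adjusted p = 0.000372). In both contrasts the groups did not overlap, and replicate 3 was the highest library of shRAD21 and of RAD21OE, and the A549 knockdown fold change was -0.94 without replicate 3 of shRAD21. It had 124, 118 and 118 CPM in the H358 shRAD21 libraries, against 171, 158 and 148 CPM in the H358 shNC libraries, which missed the threshold (-0.41, edgeR adjusted p = 0.0565). ALDH18A1, which acts before PYCR1 in proline synthesis, instead rose with knockdown in A549 (0.27, edgeR adjusted p = 0.00939). GPT2, the mitochondrial alanine aminotransferase, fell in H358 (-0.34, edgeR adjusted p = 0.00498) and rose with overexpression (0.47, edgeR adjusted p = 0.00587).

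In mitochondrial folate metabolism, MTHFD2, an enzyme of the formate branch, had 129.5, 127 and 137 CPM in the H358 shRAD21 libraries, against 188, 169 and 173 CPM in the H358 shNC libraries, a log2 fold change of -0.43 ± 0.063 (SE, edgeR adjusted p = 0.000279). ALDH1L2, which oxidises formyl-folate, was at 2.18, 2.95 and 1.57 CPM in the H358 shRAD21 libraries, against 5.00, 4.60 and 4.73 CPM in the H358 shNC libraries, a log2 fold change of -1.10 ± 0.18 (SE, edgeR adjusted p = 0.000937). It also fell with overexpression (-0.45, edgeR adjusted p = 0.0126), while SHMT2, the mitochondrial serine hydroxymethyltransferase, did not pass the test in any comparison. Of the transsulfuration enzymes that make cysteine from homocysteine, CTH fell in both lines (-0.44, edgeR adjusted p = 0.0302 in A549 and -0.64, edgeR adjusted p = 0.00333 in H358). CBS fell in A549 (-0.83, edgeR adjusted p = 0.0439), a call that 9 of 14 alternatives did not give, and a near-identical copy, CBSL, can take its reads. CBSL held 38 counts in A549 shRAD21 and 9 in A549 shNC, against 371 and 637 for CBS, while in H358 it held 568 in shRAD21 and 690 in shNC. The A549 call of CTH was lost with 5 of the 6 libraries left out in turn, all but replicate 1 of shRAD21 (adjusted p 0.0512 to 0.103). That of ALDH18A1 was lost without replicate 3 of shNC (0.0668), and ALDH1L2 with overexpression gave an adjusted p of 0.0502 to 0.064 without replicate 1 or 2 of EV. Asparagine synthetase, ASNS, a textbook ATF4 target, was scarce, with 2.01, 1.5 and 2.24 CPM in the H358 shRAD21 libraries, against 3.78, 2.64 and 4.55 CPM in the H358 shNC libraries, a log2 fold change of -0.91 ± 0.27 (SE, edgeR adjusted p = 0.0441). The call was lost with 5 of the 6 libraries left out in turn, all but replicate 2 of shNC (adjusted p 0.0795 to 0.196). Another gene on the same strand, AC079781.5, covers 44.56% of the ASNS exon bases and held 149 counts in H358 shRAD21 and 217 in H358 shNC, against 101 and 199 for ASNS, so the ASNS counts are uncertain. MTHFD2 and PYCR1 overlap genes on the other strand over 33.24% and 15.59% of their exon bases.

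The tRNA genes rose together with overexpression and most of them fell in H358. With RAD21 overexpression 10 of the 11 rose and none fell, in H358 knockdown 9 fell and none rose, and in A549 knockdown 4 fell and none rose. Their medians were 0.33, -0.33 and 0.036. The fold changes ranged from 0.16 to 0.63 with overexpression and from -0.56 to -0.10 in H358. Of all genes, 14.1% rose with overexpression, 4.62% fell in H358 and 10.9% fell in A549 knockdown. Aminoacyl-tRNA ligases load amino acids onto their tRNAs, and XPOT carries tRNAs out of the nucleus.

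AARS had 409, 429 and 497 CPM in the RAD21OE libraries, against 309, 308 and 308 CPM in the EV libraries, a log2 fold change of 0.53 ± 0.082 (SE, edgeR adjusted p = 0.000589). It had 292, 264 and 258 CPM in the H358 shRAD21 libraries, against 424, 391 and 373 CPM in the H358 shNC libraries, a log2 fold change of -0.55 ± 0.075 (SE, edgeR adjusted p = 0.000155). Knockdown in A549 gave 211, 211 and 251 CPM in the A549 shRAD21 libraries, against 296, 289.8 and 287 CPM in the A549 shNC libraries, a log2 fold change of -0.38 ± 0.075 (SE, edgeR adjusted p = 0.00111). The groups did not overlap in any of the 3. MARS, methionyl-tRNA synthetase, had 323, 342 and 367 CPM in the RAD21OE libraries, against 222, 218 and 226 CPM in the EV libraries, a log2 fold change of 0.63 ± 0.075 (SE, edgeR adjusted p = 9.88e-05). The knockdowns gave 171, 170.3 and 183 CPM in the A549 shRAD21 libraries, against 219.7, 215 and 206 CPM in the A549 shNC libraries (-0.29, edgeR adjusted p = 0.00293), and 178, 161 and 165 CPM in the H358 shRAD21 libraries, against 229, 209.5 and 207 CPM in the H358 shNC libraries (-0.35, edgeR adjusted p = 0.00197). YARS and SARS, which charge tyrosine and serine tRNAs, complete the 4 genes that fell in both knockdowns and rose with overexpression. YARS had log2 fold changes of -0.21, edgeR adjusted p = 0.0406 in A549 knockdown, -0.56, edgeR adjusted p = 9.52e-05 in H358 and 0.39, edgeR adjusted p = 0.00557 with overexpression. SARS had -0.22, edgeR adjusted p = 0.0442, -0.48, edgeR adjusted p = 0.000492 and 0.33, edgeR adjusted p = 0.00837 in the same order. The A549 knockdown calls of YARS and SARS were each lost with 5 of the 6 libraries left out in turn, all but replicate 3 of shRAD21 (adjusted p 0.0562 to 0.16 for YARS and 0.0792 to 0.194 for SARS), and the overexpression call of SARS without replicate 2 of EV (0.0525).

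GARS, glycyl-tRNA synthetase, differed between the lines by -0.40 ± 0.090 (SE, edgeR adjusted p = 0.0047), H358 minus A549. It had 144, 139 and 144 CPM in the H358 shRAD21 libraries, against 204, 189.7 and 191 CPM in the H358 shNC libraries, a log2 fold change of -0.45 ± 0.064 (SE, edgeR adjusted p = 0.000205). A549 gave 204, 186 and 183 CPM in the A549 shRAD21 libraries, against 207, 195 and 192 CPM in the A549 shNC libraries, which overlapped (-0.049, edgeR adjusted p = 0.621), while overexpression gave 246, 256 and 263 CPM in the RAD21OE libraries, against 187, 184 and 189 CPM in the EV libraries, a log2 fold change of 0.45 ± 0.072 (SE, edgeR adjusted p = 0.000724). EPRS, IARS and TARS, for glutamate and proline, isoleucine and threonine, likewise fell in H358 (log2 -0.33, -0.21 and -0.22) and rose with overexpression (0.35, 0.31 and 0.25), with 0.13, 0.036 and 0.10 in A549 knockdown, none of which passed the test. WARS and NARS, for tryptophan and asparagine, passed the test with overexpression alone (0.32, edgeR adjusted p = 0.00735 and 0.28, edgeR adjusted p = 0.0261), and XPOT in H358 alone (-0.28, edgeR adjusted p = 0.0339). Without replicate 3 of shRAD21, 5 of the 11 rose and 4 fell in A549, and without replicate 3 of RAD21OE all 11 rose with overexpression. All genes called in H358 numbered 1591, 4473 in a fit of its 6 libraries alone and 755 to 874 with 1 of the 6 left out. In the fit of the line alone, 10 tRNA genes and 9 of the 12 synthesis enzymes fell. With any 1 of the 6 H358 libraries left out, 5 or 6 tRNA genes fell, and 6 or 7 of the 12 synthesis enzymes. IARS, TARS and XPOT lost the call each time (adjusted p 0.0912 to 0.159, 0.0569 to 0.143 and 0.0651 to 0.127), and EPRS without replicate 1 of shNC or replicate 1 or 2 of shRAD21 (0.0506 to 0.0582). The overexpression calls of NARS and TARS were lost without any 1 EV library or replicate 2 of RAD21OE (0.0527 to 0.125 and 0.0637 to 0.136).

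**Figure D2:**
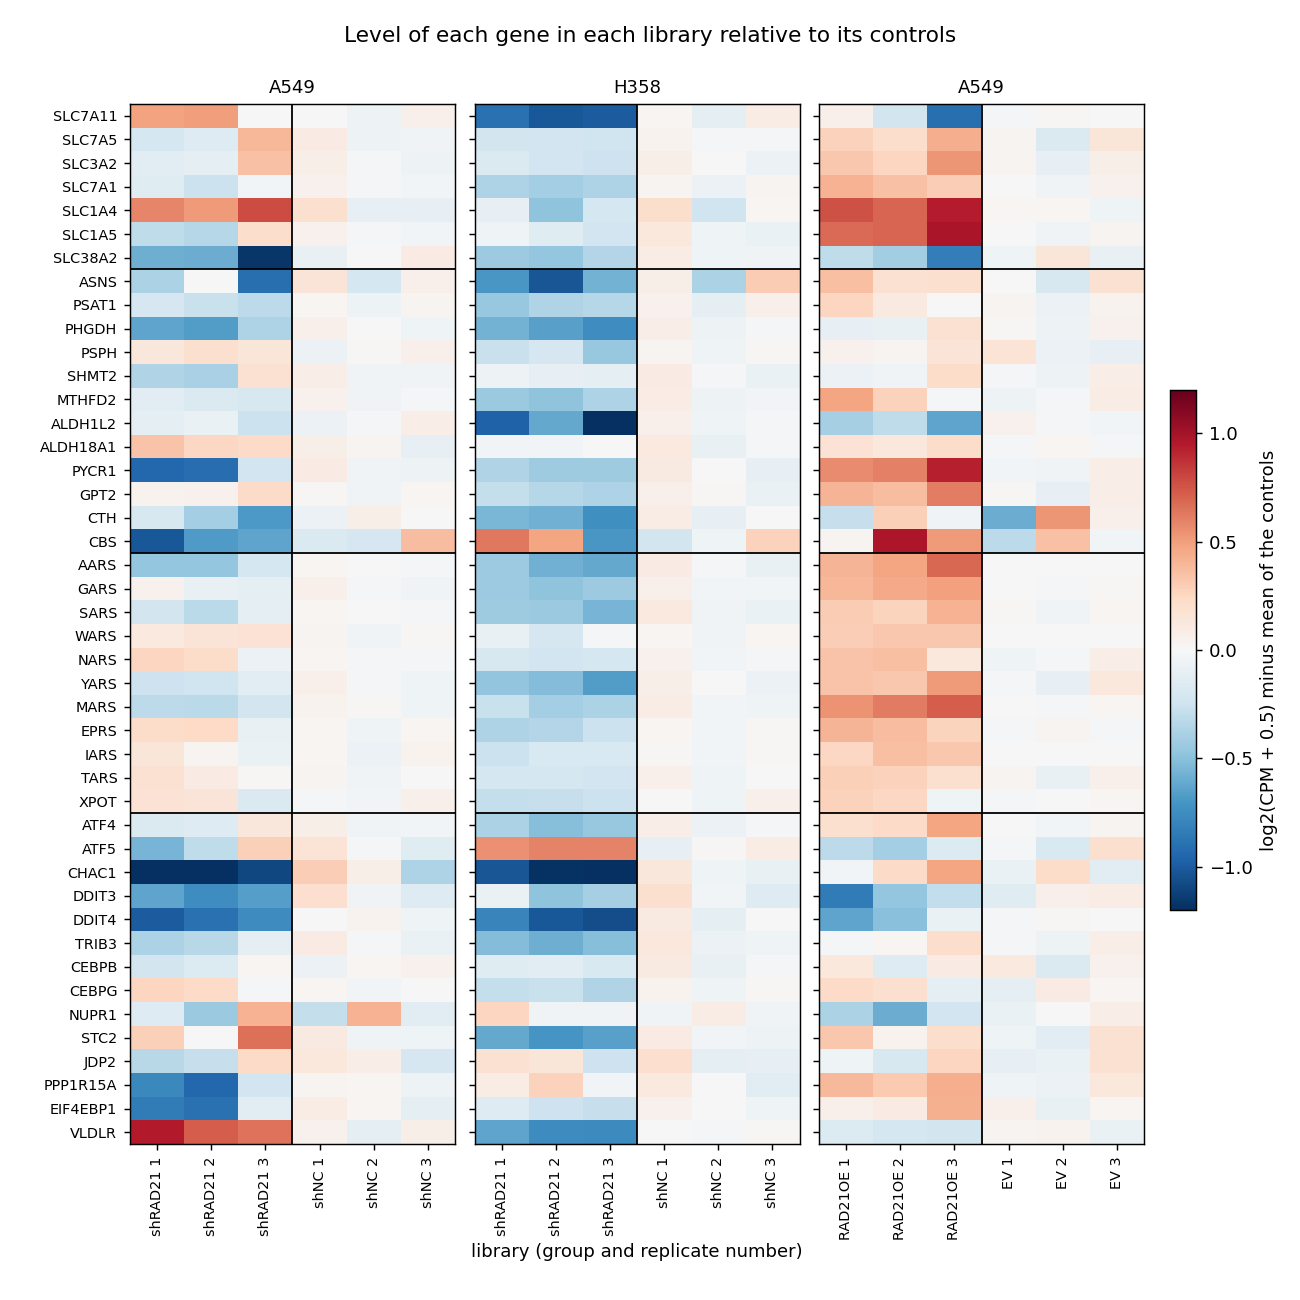
Each gene's log2(CPM + 0.5) in each library minus the mean of the 3 control libraries of its comparison, with shRAD21 or RAD21OE columns left of shNC or EV columns and lines between the 4 roles (transport, synthesis, tRNA, regulators and others, from the top). The H358 shRAD21 columns are mostly blue in all 3 libraries, nearly all tRNA rows are red in the RAD21OE columns (XPOT in replicate 3 lies below the control mean), and replicate 3 of A549 shRAD21 differs from replicates 1 and 2 in several rows.

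Library by library, the median deviation of the 44 genes from the control mean stood for H358 shRAD21 at -0.29, -0.39 and -0.37. For RAD21OE it stood at 0.25, 0.23 and 0.22. In A549 shRAD21 it was -0.20, -0.21 and -0.083. Replicate 3 of A549 shRAD21 differed in the transporters, where its median was 0.21 against -0.14 and -0.15 in replicates 1 and 2, and in the regulators, at 0.0031 against -0.36 and -0.32. In the tRNA genes it was at -0.11, against 0.11 and 0.031. Replicate 3 of RAD21OE stood at 0.15 in the regulators, against -0.024 and -0.066 in replicates 1 and 2. 

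Among the 14 regulators and other targets, 7 fell and 1 rose in H358, 6 fell and 2 rose in A549 knockdown, and 2 rose and 3 fell with overexpression. The medians were -0.33, -0.14 and 0.049. Of all genes, 4.62% fell and 3.78% rose in H358, 10.9% fell and 14.4% rose in A549 knockdown, and 14.1% rose and 13.7% fell with overexpression. The rises in A549 knockdown and with overexpression thus lay near the shares of all genes. In A549 knockdown 10 of the 14 fell and 2 rose without replicate 3 of shRAD21, and without replicate 3 of RAD21OE 3 rose and 4 fell with overexpression. The overexpression counts rest on few libraries: none rose without replicate 1 or 2 of EV and 1 without replicate 3 of EV, while none fell without replicate 2 or 3 of EV or replicate 2 of RAD21OE, and 1 fell without replicate 1 of either group. In A549 knockdown 1 rose, in place of 2, without any 1 shNC library or replicate 1 of shRAD21. ATF4 mRNA (chr22:39519695-39522685, plus strand, hg38) fell in H358, with 229.9, 209.7 and 219 CPM in the H358 shRAD21 libraries, against 316, 286 and 296 CPM in the H358 shNC libraries and a log2 fold change of -0.45 ± 0.078 (SE, edgeR adjusted p = 0.0013). A549 knockdown gave 224, 227 and 278 CPM in the A549 shRAD21 libraries, against 265, 246 and 248 CPM in the A549 shNC libraries, which overlapped (-0.058, edgeR adjusted p = 0.64), with replicate 3 above the controls and replicates 1 and 2 below. Overexpression gave 277, 284 and 336 CPM in the RAD21OE libraries, against 243, 237 and 248 CPM in the EV libraries, a log2 fold change of 0.30 ± 0.085 (SE, edgeR adjusted p = 0.0186), with no overlap. That call was lost without any 1 of the EV libraries (adjusted p 0.0601 to 0.0848). Without replicate 3 of shRAD21, ATF4 passed the test in A549 knockdown at -0.17 (edgeR adjusted p = 0.00527).

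DDIT4, also called REDD1, restrains mTORC1 and fell in all 3 comparisons. It had 90.5, 97.7 and 107 CPM in the A549 shRAD21 libraries, against 183, 187 and 176 CPM in the A549 shNC libraries, a log2 fold change of -0.88 ± 0.082 (SE, edgeR adjusted p = 2.72e-07). H358 gave 16.1, 13.7 and 13.2 CPM in the H358 shRAD21 libraries, against 30.4, 26.1 and 28.2 CPM in the H358 shNC libraries, a log2 fold change of -0.98 ± 0.096 (SE, edgeR adjusted p = 7.88e-06), at lower levels than in A549. With overexpression it had 102, 112 and 149 CPM in the RAD21OE libraries, against 157, 159.7 and 157 CPM in the EV libraries, a log2 fold change of -0.39 ± 0.12 (SE, edgeR adjusted p = 0.0264), where replicate 3 lay nearest the controls. The overexpression call was lost with 5 of the 6 libraries left out in turn, all but replicate 3 of RAD21OE (adjusted p 0.064 to 0.108). An antisense gene, DDIT4-AS1, overlaps 41.16% of the DDIT4 exon bases.

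CHAC1, an enzyme that breaks down glutathione, fell more than any of the other 43 in each knockdown. It had 1.28, 1.40 and 2.11 CPM in the A549 shRAD21 libraries, against 6.34, 5.35 and 3.83 CPM in the A549 shNC libraries, a log2 fold change of -1.71 ± 0.23 (SE, edgeR adjusted p = 1.77e-05). H358 gave 5.57, 4.97 and 4.77 CPM in the H358 shRAD21 libraries, against 13.1, 11.5 and 11.2 CPM in the H358 shNC libraries, a log2 fold change of -1.23 ± 0.17 (SE, edgeR adjusted p = 0.000203). Overexpression gave 8.12, 9.82 and 11.7 CPM in the RAD21OE libraries, against 7.81, 9.78 and 7.49 CPM in the EV libraries, which overlapped (0.24, edgeR adjusted p = 0.308). TRIB3, a pseudokinase that feeds back on ATF4, fell in both lines (-0.28, edgeR adjusted p = 0.0232 in A549 and -0.54, edgeR adjusted p = 0.000503 in H358). DDIT3, which encodes CHOP, the factor that drives the late, death-linked arm of the response, was low throughout and fell in A549 with knockdown (-0.77, edgeR adjusted p = 0.00417) and with overexpression (-0.55, edgeR adjusted p = 0.0274). MARS and MBD6 overlap 31.6% of the DDIT3 exon bases from the other strand. NUPR1, a small chromatin-bound stress protein, fell with overexpression (-0.40, edgeR adjusted p = 0.027), and was almost absent from H358, with 1 or 2 counts over each group. The A549 fall of TRIB3 was -0.058 (edgeR adjusted p = 0.54) with the correction for GC content and length, and its call was also lost without replicate 1 or 2 of either group (adjusted p 0.0571 to 0.12). The overexpression calls of DDIT3 and NUPR1 were each lost with 4 of the 6 libraries left out in turn (0.0624 to 0.1 and 0.0614 to 0.13): for DDIT3 replicates 2 and 3 of EV and 1 and 2 of RAD21OE, and for NUPR1 any EV library and replicate 2 of RAD21OE.

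**Figure D3:**
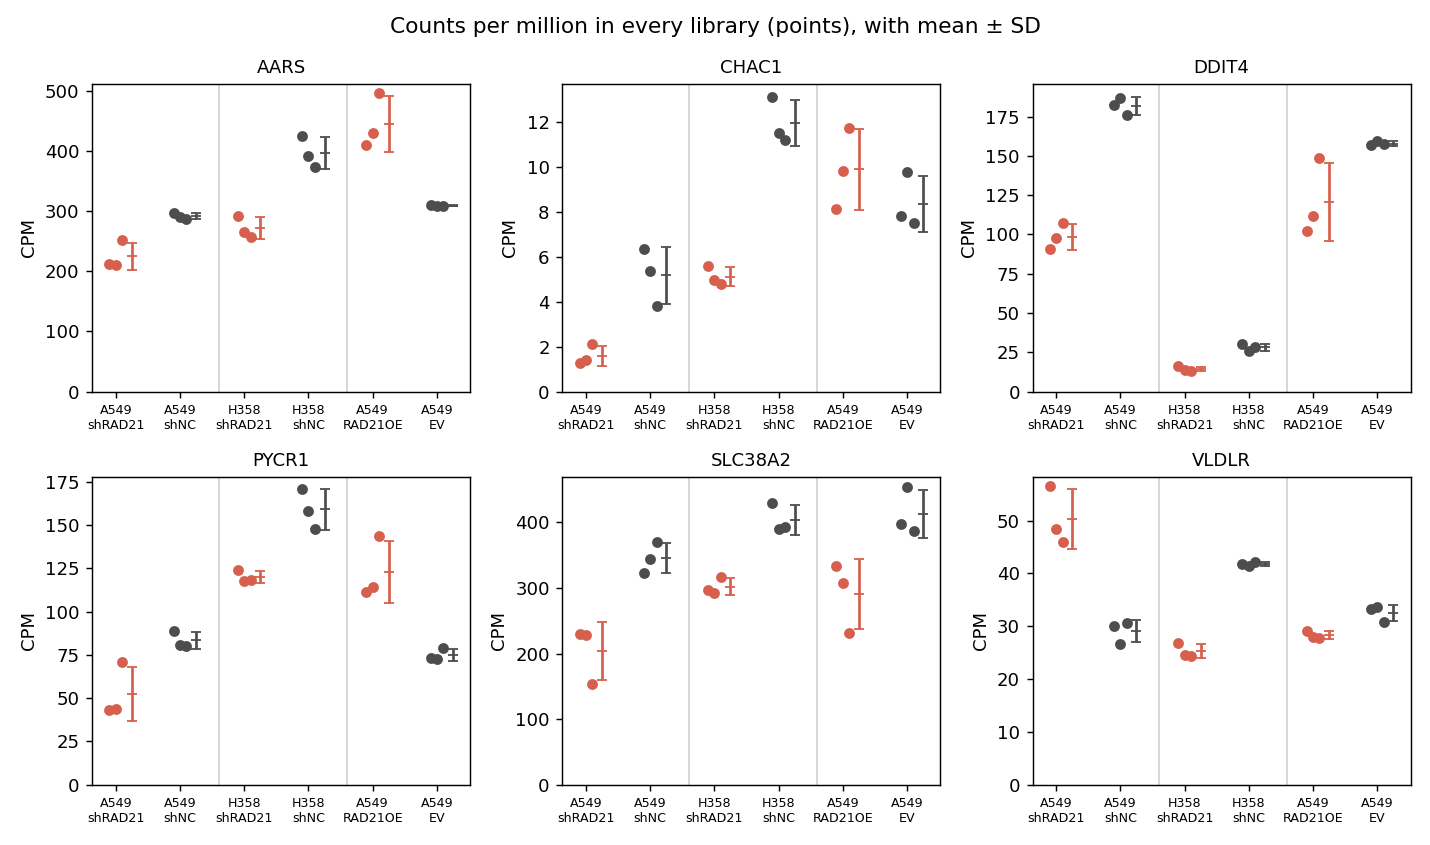
CPM in every library (points) with the mean ± SD (n = 3) for 6 genes, shRAD21 left of shNC in A549 and in H358, and RAD21OE left of EV. AARS and PYCR1 are lower with knockdown and higher with overexpression, DDIT4 and SLC38A2 are lower in all 3 comparisons, CHAC1 is lower in both knockdowns, and VLDLR is higher in A549 and lower in H358 with knockdown.

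PPP1R15A, which steers a phosphatase to eIF2 and so ends the response, had 24.3, 21.5 and 35.7 CPM in the A549 shRAD21 libraries, against 42.9, 42.6 and 40.1 CPM in the A549 shNC libraries, a log2 fold change of -0.63 ± 0.14 (SE, edgeR adjusted p = 0.00286). Overexpression gave 67.5, 64.1 and 69.9 CPM in the RAD21OE libraries, against 49.5, 49.0 and 56 CPM in the EV libraries, a log2 fold change of 0.38 ± 0.092 (SE, edgeR adjusted p = 0.00844). EIF4EBP1, a repressor of cap-dependent translation, fell in A549 knockdown, with 44.8, 43.1 and 74.0 CPM in the A549 shRAD21 libraries, against 86.1, 81.9 and 74.8 CPM in the A549 shNC libraries and a log2 fold change of -0.59 ± 0.14 (SE, edgeR adjusted p = 0.00444). For both genes replicate 3 of shRAD21 was the closest to the controls, and without it their fold changes were -0.87 and -0.88. The rise of PPP1R15A with overexpression was lost without replicate 1 or 2 of EV (adjusted p 0.0562 to 0.058). ATF5, a factor related to ATF4, was the only one of the 44 that rose in H358, with 19.9, 20.7 and 20.6 CPM in the H358 shRAD21 libraries, against 12.6, 13.6 and 14.4 CPM in the H358 shNC libraries and a log2 fold change of 0.59 ± 0.17 (SE, edgeR adjusted p = 0.032), a call lost when any 1 of the 6 H358 libraries was left out (adjusted p 0.0784 to 0.132). Of its exon bases 21.19% overlap genes on the other strand. CEBPG, a C/EBP partner of ATF4, fell in H358 (-0.31, edgeR adjusted p = 0.0247), a call lost with 5 of the 6 libraries left out in turn, all but replicate 2 of shNC (adjusted p 0.0659 to 0.109). STC2, a secreted glycoprotein, rose in A549 (0.34, edgeR adjusted p = 0.0474), a call that 9 of 14 alternatives did not give and that was 0.14 without replicate 3 of shRAD21, and fell in H358 (-0.66, edgeR adjusted p = 0.000847).

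The question of whether the lines respond alike was tested directly, as the H358 effect minus the A549 effect. It was below 0 for 33 of the 44 genes and above 0 for 11. It passed the test as negative for 16 and as positive for 2, against 9.94% and 7.61% of all genes. Without replicate 3 of A549 shRAD21 the counts were 21 and 8, while all genes called went from 3325 to 7348. VLDLR, a lipoprotein receptor, differed most. It had 26.8, 24.6 and 24.5 CPM in the H358 shRAD21 libraries, against 41.8, 41.4 and 42.3 CPM in the H358 shNC libraries, a log2 fold change of -0.73 ± 0.092 (SE, edgeR adjusted p = 8.1e-05). It had 56.6, 48.4 and 45.9 CPM in the A549 shRAD21 libraries, against 30.1, 26.7 and 30.6 CPM in the A549 shNC libraries, a log2 fold change of 0.79 ± 0.092 (SE, edgeR adjusted p = 3.9e-06), so the groups separated in opposite directions, and the difference was -1.52 ± 0.13 (SE, edgeR adjusted p = 3.19e-07). SLC7A11 and STC2 likewise fell in H358 and rose in A549, with differences of -1.32 ± 0.14 (SE, edgeR adjusted p = 4.96e-06) and -1.001 ± 0.16 (SE, edgeR adjusted p = 0.000325). All 11 tRNA genes had a more negative effect in H358, of which 6 passed the test, and AARS, SARS, MARS, WARS and IARS did not.

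Knockdown lowered 11 genes in both lines, namely SLC38A2, PSAT1, PHGDH, CTH, AARS, SARS, YARS, MARS, CHAC1, DDIT4 and TRIB3, which is 68.8% of the 16 that fell in A549 and 40.7% of the 27 that fell in H358. That is 25% of the 44, and 1.08% of all genes tested fell in both. None of the 44 rose in both, as 1.07% of all genes did. Between the A549 experiments, whose controls are separate, 6 genes fell with knockdown and rose with overexpression (PYCR1, AARS, SARS, YARS, MARS and PPP1R15A), none rose with knockdown and fell with overexpression, SLC38A2, DDIT3 and DDIT4 fell in both and SLC1A4 rose in both. Of the 15306 genes tested in both tables, 3.06% fell with knockdown and rose with overexpression, against 13.6% of the 44, and 3.72%, 1.91% and 1.59% had the other joint patterns in the order given. The 4 that fell in both knockdowns and rose with overexpression are 9.09% of the 44, against 0.235% of all genes. The members were chosen with these results known, so no test goes with these shares.

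**Figure D4:**
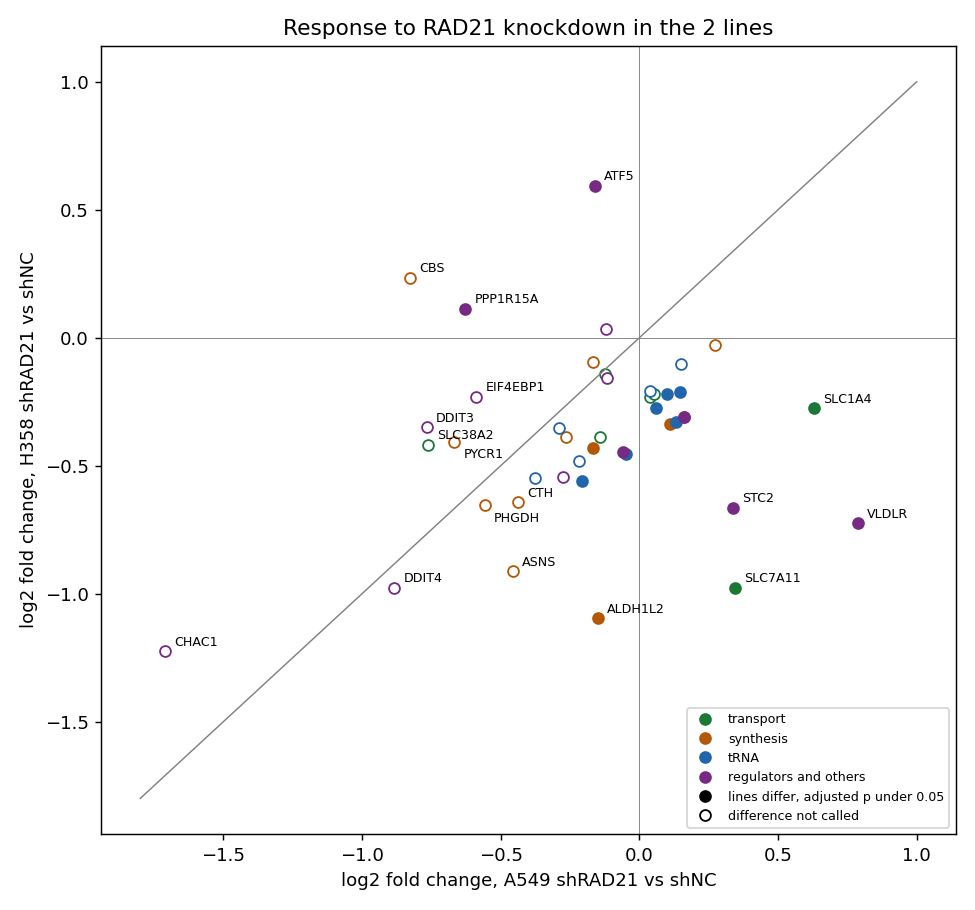
Log2 fold change with RAD21 knockdown in H358 (vertical) against A549 (horizontal), 1 point per gene without NUPR1, with the line of equal effect; filled points differ between the lines at an adjusted p under 0.05. VLDLR, SLC7A11 and STC2 lie far below the line, ATF5 and PPP1R15A above it, and CHAC1 and DDIT4 are low in both lines without a called difference.

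Genes that act before ATF4 were also followed. Of 17 eIF2 kinases, eIF2 and eIF2B subunits and their regulators, 5 rose and none fell in A549 knockdown, against 14.4% and 10.9% of all genes, with PPP1R15B, the constitutive partner of the eIF2 phosphatase, at 0.42, edgeR adjusted p = 0.000175, EIF2S1, the phosphorylated subunit, at 0.25, edgeR adjusted p = 0.00587 and EIF2AK1, the heme-regulated kinase, at 0.23, edgeR adjusted p = 0.0144. The list's median was 0.14. In H358, where the median was -0.014, EIF2S1 rose (0.21, edgeR adjusted p = 0.0477) and EIF2AK3, the kinase PERK, fell (-0.47, edgeR adjusted p = 0.0101). With overexpression 5 rose, led by EIF2B4 (0.48, edgeR adjusted p = 0.00236), GCN1 (0.39, edgeR adjusted p = 0.00313) and EIF2B3 (0.53, edgeR adjusted p = 0.00452), and IMPACT and EIF2AK2 fell (-0.48, edgeR adjusted p = 0.0225 and -0.46, edgeR adjusted p = 0.0329). Of all genes, 14.1% rose and 13.7% fell there.

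Cytosolic ligases and scaffold proteins outside the 44 rose with overexpression too, in 7 of 13, against 14.1% of all genes, led by KARS (0.46, edgeR adjusted p = 0.000678), CARS (0.36, edgeR adjusted p = 0.00771) and AIMP2 (0.45, edgeR adjusted p = 0.00805), with a median of 0.26. In H358 knockdown CARS fell (-0.52, edgeR adjusted p = 0.000546) and the other 12 did not pass the test, with a median of 0.015, against 9 of 11 that fell among the tRNA genes followed here, a contrast that was not tested. In A549 knockdown CARS fell (-0.34, edgeR adjusted p = 0.00434) and AIMP1 rose (0.32, edgeR adjusted p = 0.0241). That is 1 of 13 each way, against 10.9% and 14.4% of all genes. CARS was also the only one of 10 such genes with a listed promoter that held TGATGNAA. On the other lists the motif was held by PPP1R15B (1 of 15 eIF2-related genes with a listed promoter) and YARS2 (1 of 14 mitochondrial ligases). HERPUD1 (1 of 20 on the chaperone list), MTHFD1L (1 of 9 folate and serine enzymes), and ATF3 and FGF21 (2 of 12 other downstream genes) held it too. Whether it goes with the fold changes on these lists was not tested. Mitochondrial ligases gave 2 higher and 1 lower of 17 in A549 knockdown, 1 higher in H358, and 2 higher and 1 lower with overexpression, with medians of 0.024, 0.081 and 0.087. These counts lie near or below the shares of all genes. Those were 14.4% higher and 10.9% lower in A549 knockdown, 3.78% higher in H358, and 14.1% higher and 13.7% lower with overexpression. CARS2 rose in both knockdowns (0.42, edgeR adjusted p = 0.00107 in A549 and 0.39, edgeR adjusted p = 0.00838 in H358), and SARS2 fell in A549 (-0.87, edgeR adjusted p = 0.00856). Another gene on the same strand, AC011455.2, covers 46.18% of the SARS2 exon bases, so the SARS2 counts are uncertain.

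Another list held endoplasmic reticulum chaperones together with other genes of the neighbouring ATF6 and IRE1 arms. Of its 21 genes 7 fell in H358 and none rose, against 4.62% and 3.78% of all genes (median -0.11). The falls were led by HSPA5, the main chaperone (-0.32, edgeR adjusted p = 0.000897), HERPUD1 (-0.46, edgeR adjusted p = 0.00135) and ERN1, the sensor IRE1 (-0.60, edgeR adjusted p = 0.00136). In A549 knockdown 3 rose and 3 fell, near the 14.4% and 10.9% of all genes, with XBP1 at 0.66, edgeR adjusted p = 1.26e-05 and PDIA4 at -0.58, edgeR adjusted p = 8.38e-07. With overexpression 3 rose and 3 fell, near the 14.1% and 13.7% of all genes, with HERPUD1 at 0.46, edgeR adjusted p = 0.00188 and HSP90B1 at -0.34, edgeR adjusted p = 0.00726. Of 15 other genes downstream of ATF4 or CHOP, 14 could be tested in the knockdowns. In A549 7 fell and 3 rose, against 10.9% and 14.4% of all genes (median -0.26), and in H358 4 fell, against 4.62% (median -0.14). SESN2, which senses leucine for mTORC1, fell in A549 (-0.67, edgeR adjusted p = 0.000109) and in H358 (-0.79, edgeR adjusted p = 9.28e-05). SQSTM1, an autophagy receptor that is also a target of the antioxidant factor NRF2, fell with knockdown in A549 (-0.71, edgeR adjusted p = 9.41e-05) and rose with overexpression (0.87, edgeR adjusted p = 3.02e-05). With overexpression 4 of 13 rose and 3 fell, against 14.1% and 13.7% of all genes (median 0.19), and KLHL24, a substrate adaptor of a ubiquitin ligase, had the largest change (-1.73, edgeR adjusted p = 7.97e-05). The largest change in A549 knockdown was that of TXNIP, a thioredoxin inhibitor (3.02, edgeR adjusted p = 7.51e-06). Folate and serine enzymes outside the 44 were mixed, with 3 higher and 1 lower of 11 in A549 knockdown (median 0.18), 1 and 1 in H358 (0.094), and 2 and 2 with overexpression (0.13). The shares of all genes higher and lower were 14.4% and 10.9%, 3.78% and 4.62%, and 14.1% and 13.7% in the same order. MTHFD1L, the next mitochondrial enzyme after MTHFD2, fell in H358 (-0.29, edgeR adjusted p = 0.0112) and rose with overexpression (0.47, edgeR adjusted p = 0.00233).

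**Figure D5:**
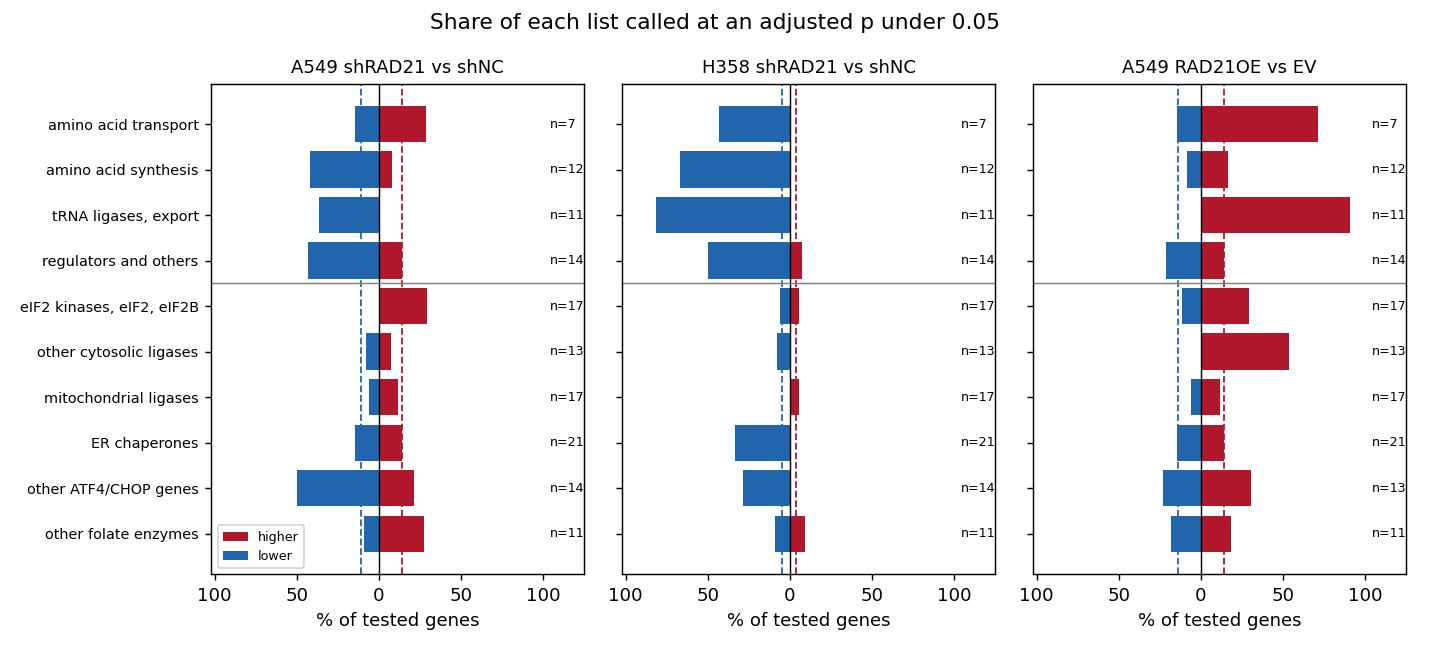
Share of the tested genes of each list that were higher (right, red) or lower (left, blue) at an adjusted p under 0.05 in shRAD21 over shNC and in RAD21OE over EV, for the 4 roles of the 44 genes (above the grey line) and 6 other lists (below). Dashed lines give the share of all genes called in each direction, from 3.78% to 14.4%. The tRNA genes reach 9 of 11 lower in H358 and 10 of 11 higher with overexpression.

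Genes with the motif and genes without it can be set side by side within the 35 that have a listed promoter. With overexpression 10 of 14 with TGATGNAA rose, against 6 of 21 without and 14.1% of all genes. The 10 were all transporters or tRNA genes. The 6 were SLC7A5, SARS, WARS, EPRS, ATF4 and PPP1R15A, so the split follows role as well as motif. In H358 knockdown 9 of 14 with the motif fell, against 13 of 21 without and 4.62% of all genes. In A549 knockdown 3 of 14 fell, against 10 of 21 and 10.9% of all genes. These are counts with no test. In A549 the sum of epithelial markers, nearly all of it KRT8 and KRT18, was higher in both contrasts, at 11300 to 14000 CPM in shRAD21 against 7120 to 7550 CPM in shNC and at 10400 to 13600 CPM in RAD21OE against 8230 to 8430 CPM in EV. The other markers were not higher with overexpression, where CDH1 was at 46.8 to 59.7 CPM in RAD21OE against 61.3 to 78.1 CPM in EV, and EPCAM and KRT19 overlapped. With knockdown all 5 were higher in A549 shRAD21, with no overlap. In H358 the sum of lung lineage markers, nearly all of it NKX2-1, was at 151 to 165 CPM in shRAD21 against 116 to 127 CPM in shNC. SFTPB, SFTPC and NAPSA each had at most 2.35 CPM in H358. The part of these markers in the results was not tested. Fold changes also followed GC content across genes (Spearman's rho -0.33 for A549 knockdown, 0.18 for H358 and 0.32 for overexpression). A correction for GC content and length gave 14 lower and 11 higher in A549 knockdown, 35 lower and 1 higher in H358, and 23 higher and 6 lower with overexpression. All genes called rose as well, from 4780 to 5555, from 1591 to 3260 and from 4297 to 5952 in the same order.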

How the data were processed

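TRIzol extraction and a VAHTS Universal V6 library kit were used, per the labels' protocols. Tools listed in the submitters' processing notes, with no role or order, are HISAT2 2.0.5, featureCounts 1.5.0-p3 and fastp, and the build is hg38. The authors deposited raw counts per gene in 2 tables, of 12 knockdown and 6 overexpression libraries, and the gene models equal GENCODE release 29. No count column lacked a sample (0).

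Each table was fitted alone in R 4.3.3 with edgeR 4.0.16 (filterByExpr, TMM, quasi-likelihood F-test, two-sided, 1 mean per group), with Benjamini-Hochberg adjustment over all genes tested and a threshold of 0.05. The H358 minus A549 contrast came from the same fit. CPM use TMM-scaled library sizes and RPKM the deposited exon length. CPM and RPKM were computed here from the deposited counts. The biological coefficient of variation was 0.0864 and 0.0981. The fits were also run on simulated counts with known changes. Those counts held no outlying library and no trend with GC content, so that run does not bear on the deviations of replicate 3. Nothing says that replicates are separate cultures, so p-values cover only variation among these libraries, which may be technical.

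The 44 genes and the 6 other lists (94 genes) were chosen with earlier results of these data known. All 44 are named, with values per library for those with the smallest adjusted p in each role and for ATF4 and others the text compares; of other lists, up to 3 that rose and 3 that fell per comparison. Alternatives were DESeq2 1.42.0 size factors and Wald test, limma 3.58.1 voom, no filter or at least 10 CPM in 3 libraries, a fit of 1 line's 6 libraries alone, a replicate block, offsets for GC content and length, and each library left out. Same-numbered replicates did not deviate together.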

Additional observations from a re-analysis of the deposited data

Results flagged for a closer look

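The difference of the knockdown effect between the lines, H358 minus A549, passed edgeR's test for 18 of the 44 genes, listed here on the log2 scale. It was negative for VLDLR (-1.52), SLC7A11 (-1.32), STC2 (-1.001), ALDH1L2 (-0.95) and SLC1A4 (-0.91). Smaller negative differences were found for PSPH (-0.47), CEBPG (-0.47), EPRS (-0.46), GPT2 (-0.45), GARS (-0.40), ATF4 (-0.39), NARS (-0.36), YARS (-0.35), XPOT (-0.34), TARS (-0.32) and MTHFD2 (-0.27). It was positive for ATF5 (0.76) and PPP1R15A (0.74). Adjusted p ranged from 3.19e-07 (edgeR, VLDLR) to 0.0463 (edgeR, MTHFD2). VLDLR, SLC7A11, STC2, ALDH1L2, SLC1A4, GPT2, GARS, EPRS and CEBPG kept the call under every alternative run, and the other 9 lost it under at least 1: MTHFD2, NARS and XPOT each lost it with 11 of the 12 libraries left out in turn. Knockdown was deeper in A549 than in H358, at 0.474 against 0.703 of the control level of RAD21, and its part in these differences was not tested.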

How the results depend on the processing

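Across all alternatives, 13 of 21 calls in A549 knockdown, 19 of 28 in H358, 13 of 24 with overexpression and 9 of 18 for the difference of the lines were kept every time. Of the 44 genes, 5 rose in A549 knockdown, 11 with the correction for GC content and length and 2 in a fit of the 6 libraries of the line; leaving out each library gave 3 to 10. The 16 that fell became 11 to 25 with a library left out, with 25 without replicate 3 of shRAD21. All genes called there numbered 4780, 3066 in the fit of the line alone and 3443 to 8430 with a library left out, with 8430 without replicate 3 of shRAD21. In H358, ATF5 alone rose. The fit of the line alone also gave 1, while limma-voom gave 0 and so did leaving out any 1 of the 6 H358 libraries. A library was left out only of comparisons that use its group. The A549 libraries, which share the estimate of the spread, were thus never left out for H358. The 27 that fell in H358 became 34 in the fit of the line alone and 19 to 22 with a library left out. The 1591 genes called in H358 became 3260 with the GC correction, 4473 in the fit of the line alone, and 755 to 874 with a library left out. With a library left out, the 5 genes that fell with overexpression became 0 to 6, the 19 that rose 13 to 24 and the 4297 genes called 2177 to 5536. For the difference, 2 positive genes became 5 with no filter and 0 to 8 with a library left out, and with a library left out 16 negative genes became 9 to 21 and 3325 genes called 2235 to 7348. Among values that passed the threshold, signs turned for SLC7A5 (-0.18, with 0.15 at most over the left-out libraries) and SLC3A2 (-0.12, with 0.14 at most) in A549 knockdown and for SLC1A5 in the difference (0.18) without replicate 3 of A549 shRAD21, and for CEBPB in A549 knockdown (0.19) with the GC correction. The cause was not tested.

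The replicate numbers did not pair the libraries (correlation of same-numbered deviations -0.037 to 0.067). With the replicate block 22 genes fell in H358 instead of 27, of them 6 tRNA genes instead of 9, 13 instead of 16 fell in A549 knockdown, and 20 instead of 19 rose with overexpression. All genes called with the block numbered 1124 instead of 1591, 4172 instead of 4780 and 4387 instead of 4297 in the same order. Depth limits the genes with the fewest counts, such as ASNS, CHAC1 in A549 knockdown, ALDH1L2 in H358 and NUPR1 in H358.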
